A study of Mus musculus with 30 samples.

Results

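10 genes were followed across WT and Abcb10-null murine erythroleukemia cells because they came out as close to on-off between the genotypes: Rnf212b, Mid1, Met, Ret, Gpm6b, Rab10os, Rab3il1, Bcas1, Gm16579 and 4930523C07Rik. These 10 of the 54532 genes in the count table were found by symbol through their Ensembl identifiers, and they were chosen by their counts in WT against Abcb10-null libraries, the very difference that they show. That difference is therefore given below as a description, with no test, and nothing is supported with it. Murine erythroleukemia (MEL) cells, here the DS19 line, are leukemic erythroid precursors that start to make hemoglobin in DMSO. RNA was sequenced from WT cells and from Abcb10-null cells, in which CRISPR/Cas9 was directed at the gene for the mitochondrial transporter ABCB10, at day 0 without DMSO, and at days 2 and 5 of culture with DMSO at 1.5%. There were 5 biological replicates for each genotype and day, 30 libraries in all, with 9906783 to 20157768 counts each. The Abcb10-null cells were a single clone grown from sorted GFP-positive cells. A gene that differed between that clone and the WT culture for any other reason cannot be told apart from a gene that differed with Abcb10.

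Of the 10 members, 8 were higher in WT. Met and Ret are receptor tyrosine kinases, which bind a ligand outside the cell and pass a signal through adaptors to the MAP kinases. Met binds hepatocyte growth factor, and Ret responds to ligands of the GDNF family through GFRA co-receptors. Mid1 encodes an E3 ubiquitin ligase on microtubules that acts on the phosphatase PP2A, and Rab3il1 a guanine nucleotide exchange factor for Rab GTPases, which steer vesicles. Gpm6b encodes a membrane protein of the proteolipid family, best known in neurons and oligodendrocytes. Rnf212b encodes a RING finger protein of meiotic crossover formation, a germ cell process. Rab10os is an antisense RNA gene that overlaps the end of Rab10, and 4930523C07Rik is annotated as protein coding. The other two were higher in Abcb10-null cells: Bcas1, a marker of oligodendrocytes that are forming myelin, and the antisense RNA gene Gm16579. None of the 10 is a textbook gene of red cell formation.

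The genes lie on 8 chromosomes of the GRCm38 build, by GENCODE M21. Mid1 (ENSMUSG00000035299, chrX:169685199-170005736) and Gpm6b (ENSMUSG00000031342, chrX:166238911-166388988) share chromosome X, and Met (ENSMUSG00000009376, chr6:17463800-17573980) and Ret (ENSMUSG00000030110, chr6:118151745-118197718, minus strand) share chromosome 6. The others are Rnf212b (ENSMUSG00000112858, chr14:54814141-54854108), Rab10os (ENSMUSG00000079179, chr12:3235504-3250377), Rab3il1 (ENSMUSG00000024663, chr19:10001669-10038380), Bcas1 (ENSMUSG00000013523, chr2:170346991-170427845, minus strand), Gm16579 (ENSMUSG00000089851, chr5:86728899-86759736) and 4930523C07Rik (ENSMUSG00000090394, chr1:160044382-160080208). Genes on the opposite strand share 14.2% of the exon bases of Mid1, 11.7% of Bcas1, 10.6% of Rnf212b, 5.9% of 4930523C07Rik and 2.33% of Rab10os, in each case for the single gene with the largest overlap. The strand setting of the counting was not given in the sources used here, so reads from a member and from such a partner cannot be told apart over those bases.

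RefSeq (GRCm38.p6) held a start site for 7 of the 10 genes, and Ret, Bcas1 and Gm16579 had no entry. Upstream sequence is shown for 3 members with a single start site: Rnf212b and 4930523C07Rik, which had no count in any Abcb10-null library at day 0, and Gpm6b, which was never silent. Each run is the plus strand, 5′ to 3′, of the part of the 250 bases before the RefSeq start that lies before the GENCODE gene start, with CpG dinucleotides in capitals. They are chr14:54813900-54814140 for Rnf212b, chr1:160044130-160044379 for 4930523C07Rik and chrX:166238693-166238910 for Gpm6b.
Rnf212b: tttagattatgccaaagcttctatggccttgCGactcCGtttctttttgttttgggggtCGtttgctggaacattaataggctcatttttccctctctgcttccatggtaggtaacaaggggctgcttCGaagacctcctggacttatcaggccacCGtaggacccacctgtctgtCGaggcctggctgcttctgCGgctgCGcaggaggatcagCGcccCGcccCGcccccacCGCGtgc
4930523C07Rik: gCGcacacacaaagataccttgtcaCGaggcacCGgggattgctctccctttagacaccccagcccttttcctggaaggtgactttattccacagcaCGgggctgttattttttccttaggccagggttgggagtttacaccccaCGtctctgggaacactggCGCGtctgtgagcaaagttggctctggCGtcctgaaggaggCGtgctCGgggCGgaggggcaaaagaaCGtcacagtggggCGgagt
Gpm6b: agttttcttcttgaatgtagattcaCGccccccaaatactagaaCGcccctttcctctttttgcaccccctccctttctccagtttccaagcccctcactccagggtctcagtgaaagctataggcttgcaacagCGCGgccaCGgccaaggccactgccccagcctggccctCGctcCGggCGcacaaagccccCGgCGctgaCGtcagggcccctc
Over all 250 bases Rnf212b and 4930523C07Rik each held 13 CpG dinucleotides, Gpm6b 15, Met 24 and Rab10os 32, and the median of the 32851 promoters in the table was 6. At least 13 occurred in 31.5% of promoters, and at least 32 in 4.58%. The 3 start sites of Mid1 held 0, 5 and 9, and the 5 of Rab3il1 held 12, 15, 1, 1 and 8. GATA motifs (AGATAA or TGATAA, or either with G as its final letter, on either strand) were found in 26.5% of all promoters. Rnf212b held 1 of these motifs and 3 of the Rab3il1 sites held at least 1, while the windows of Mid1, Met, Gpm6b, Rab10os and 4930523C07Rik held none of these letters.

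Each of 11 erythroid markers passed 3 counts in at least 1 library of every group, although Slc4a1, the anion exchanger of late red cells, had a mean of only 0.249 CPM at day 0 in WT and 0.179 in the clone. Their summed level rose from a median of 2909 CPM (counts over the library total set to 1e6, with TMM scaling) at day 0 to 21164 at day 5 in WT, and from 2903 to 7492 in Abcb10-null cells. Abcb10 itself stood at 122 ± 6.61 CPM at day 0 in WT against 76.5 ± 5.37 in the clone, and at day 5 at 1197 ± 50.3 against 203 ± 40.9 (SD, n = 5), with every Abcb10-null library below every WT library of its day. The oligodendrocyte factors Sox10 and Olig2 never passed 4 and 5 counts in any library. In bulk RNA, fewer cells of a type and less RNA per cell cannot be told apart. The library Abcb10-null day 5 replicate 4 stood apart. It had the lowest total of the 30, and it held 1.74 counts per kb of exon over 26310 genes that were at or under 3 counts in every library of the other 5 groups. The other 4 libraries of its group held 0.0319 to 0.445 on this measure, and 4830 of these genes passed 3 counts in replicate 4 against 48 to 947 in the others. In Abcb10-null cells at day 5 the summed level of 7 neural markers ran from 0.433 to 7.06 CPM, of 5 lymphoid markers from 0 to 4, of 5 fibroblast markers from 0.186 to 7.31 and of 5 macrophage markers from 2.16 to 10.3. The highest library was replicate 4 for the first 3 lists and replicate 5 for the macrophage markers. In WT at day 5 the ranges were 2.22 to 4.36, 0.253 to 2.23, 0.95 to 4.4 and 1.64 to 3.92, and at day 0 markers of other lineages also differed between the genotypes. The 4 mast cell markers summed to 2.95 to 6.27 CPM in Abcb10-null cells and 0.256 to 1.1 in WT, with Mcpt8 at 0 in both, and the 5 macrophage markers to 11.1 to 15.9 and 7.6 to 9.51. The part of such markers in the results was not tested. Day 5 values of the members in Abcb10-null cells are given with and without replicate 4 where that library changes a ratio or a call.

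**Figure D1:**
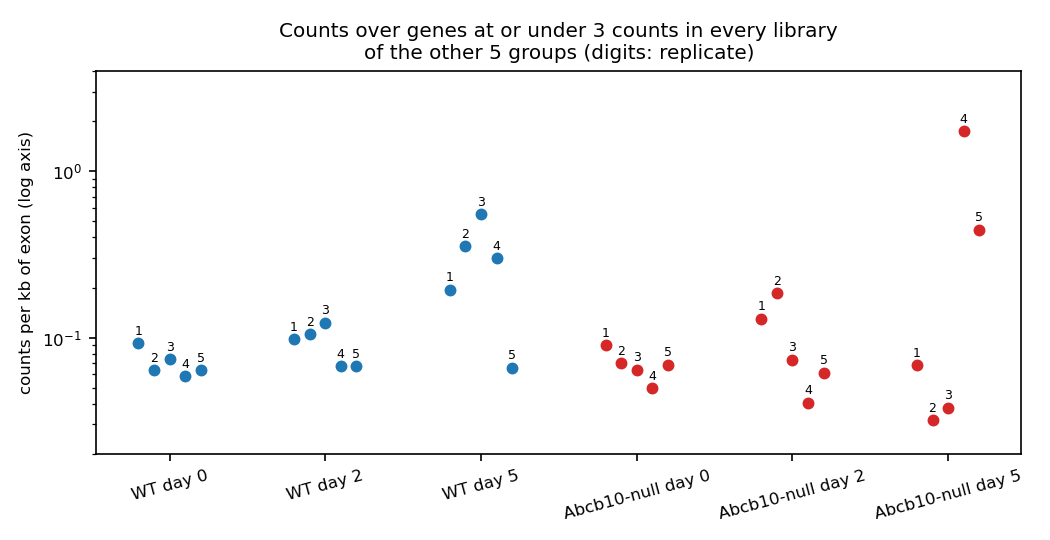
Counts per kb of exon (log axis) over genes that were at or under 3 counts in every library of the other 5 groups, for the 5 libraries of each genotype and day; digits give the replicate. The set of genes differs by group (26310 for Abcb10-null day 5 and 22798 for WT day 5), so values compare within a group only. Sets of the other groups leave out genes over 3 counts in Abcb10-null day 5 replicate 4. Within its own group that library sat at 1.74 and the others at 0.0319 to 0.445.

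Whether a member was silent, taken here as at most 3 counts, in 1 genotype at all days varied widely among the 10. Only Gm16579 met this in every library, with 15 of 15 WT libraries at or under 3 counts. Rnf212b and Rab10os met it in 14 of 15 Abcb10-null libraries and in all 14 without day 5 replicate 4. Of the remaining WT-high genes, 4930523C07Rik was at or under 3 counts in 13 Abcb10-null libraries, Mid1 in 12, Met in 11 and Ret in 8. Bcas1 was so in 13 of 15 WT libraries. Gpm6b and Rab3il1 passed 3 counts in all 15 Abcb10-null libraries, so the term on-off does not hold for them, and they were lower rather than silent. At each day, every library of the higher genotype was above every library of the other for 9 of the 10 genes. The exception was Met, which did so at days 0 and 2 and at day 5 overlapped between WT replicate 1 and Abcb10-null replicate 4. The members were chosen by these counts, so the 9 of 10 is a description. The share of all genes without such overlap is not given here. Across all genes tested, 36% differed between the genotypes at day 0 by edgeR's quasi-likelihood test (adjusted p under 0.05), 31.8% at day 2 and 37.6% at day 5. The shares higher in Abcb10-null cells were 19.7%, 14.9% and 19.8%, and the shares lower 16.2%, 16.9% and 17.8%. The choice of members used that contrast.

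**Figure D2:**
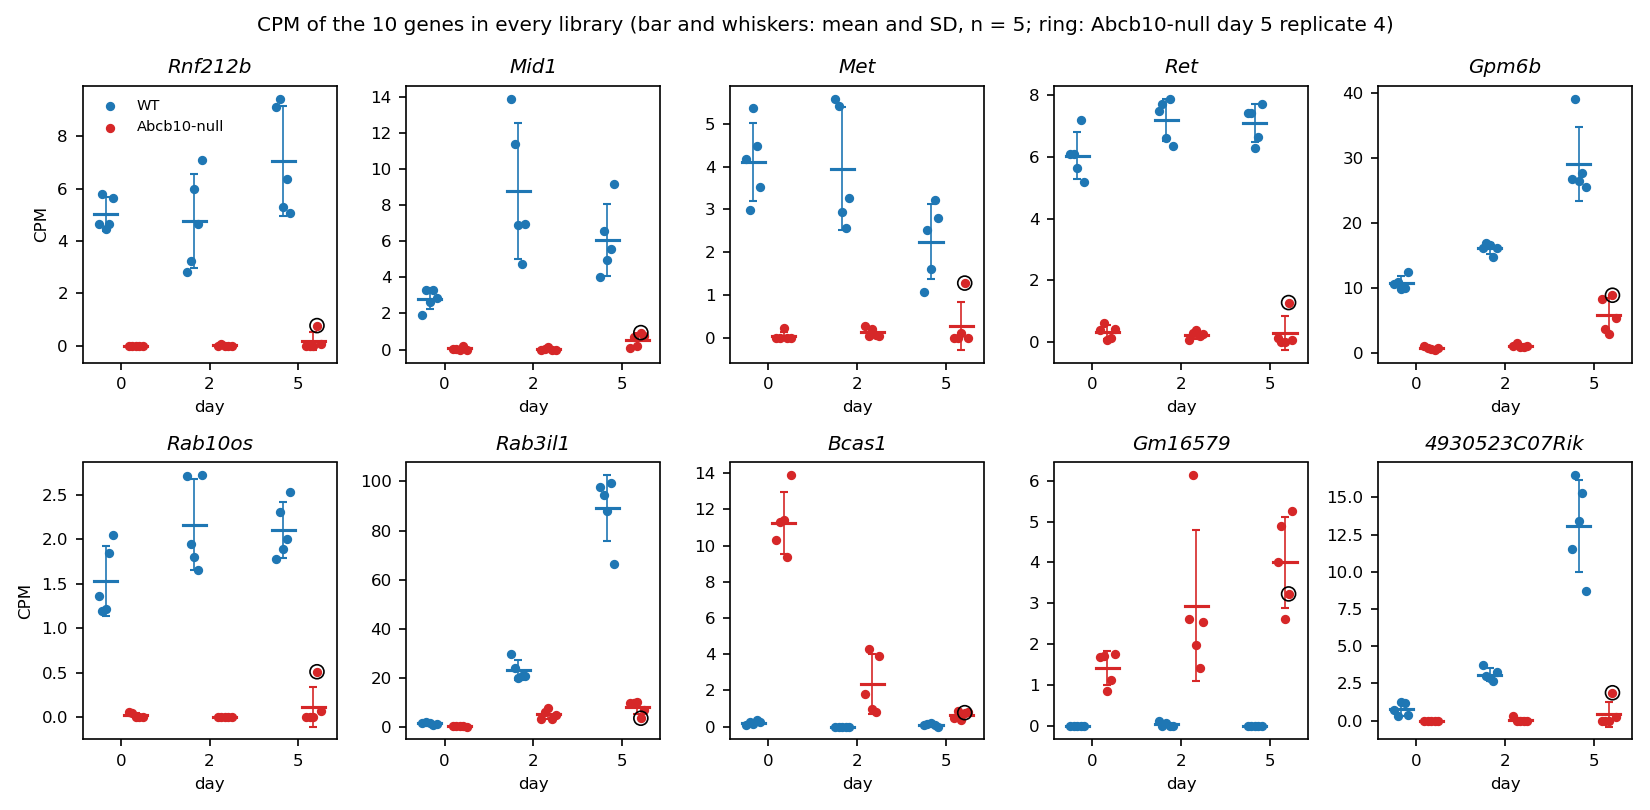
CPM in each library by day for the 10 genes, WT in blue and Abcb10-null in red, with bars and whiskers for mean and SD (n = 5) and a ring on Abcb10-null day 5 replicate 4. The red points of Rnf212b, Rab10os and 4930523C07Rik lie at or near 0 except the ringed library, which reached 0.765, 0.51 and 1.87 CPM, and for Gm16579 the blue points lie at or near 0.

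Met, the receptor for hepatocyte growth factor, had 71, 40, 93, 61 and 55 counts in the 5 WT libraries at day 0, and 0, 0, 4, 0 and 0 in the Abcb10-null libraries. At day 2 the WT libraries held 97, 95, 44, 42 and 59 counts and the Abcb10-null libraries 5, 1, 4, 1 and 1. At day 5 the WT libraries held 15, 34, 18, 45 and 44 and the Abcb10-null libraries 0, 0, 2, 15 and 0. The single high value at day 5 came from replicate 4, which equalled the lowest WT library in counts and, being shallower, was above it in CPM (1.28 against 1.07). The ratio of WT to Abcb10-null was 92.9 at day 0 (95% interval 35.9 to 343, for counting error only, as for all such intervals here) and 30.4 at day 2 (17.2 to 59.4). At day 5 it was 10.1 with all libraries and 72.4 without Abcb10-null replicate 4.

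Ret, the other receptor kinase, kept a trace in Abcb10-null cells. Its WT libraries held 103, 82, 98, 98 and 81 counts at day 0, 130, 135, 99, 129 and 115 at day 2 and 104, 100, 70, 93 and 122 at day 5. The Abcb10-null libraries held 7, 12, 1, 2 and 8 at day 0, 1, 6, 7, 3 and 5 at day 2 and 2, 0, 0, 15 and 1 at day 5. No Abcb10-null library reached the lowest WT library on any day, and 7 of the 15 passed 3 counts. The ratio was 17.9 at day 0 (12.4 to 26.8), 29.9 at day 2 (19.6 to 48.1) and 29.9 at day 5, which became 151 without replicate 4 (51.5 to 736).

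Mid1, the microtubule-bound ubiquitin ligase, had 32, 44, 46, 45 and 45 counts in WT at day 0, 242, 200, 103, 77 and 125 at day 2 and 56, 88, 55, 78 and 145 at day 5. The Abcb10-null libraries held 1, 1, 0, 3 and 0 counts at day 0, 0, 1, 3, 0 and 0 at day 2 and 1, 11, 3, 11 and 10 at day 5. Its day 5 counts were thus spread over 3 libraries and not held by replicate 4 alone. The ratio was 49.2 at day 0 (20.8 to 153), 202 at day 2 (78.6 to 744) and 12.9 at day 5 (9.16 to 18.7), or 15.7 without replicate 4.

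Gpm6b, the proteolipid family membrane protein, differed as a matter of degree. WT libraries held 180, 148, 171, 138 and 196 counts at day 0, 282, 298, 249, 242 and 290 at day 2 and 376, 526, 294, 388 and 403 at day 5. Abcb10-null libraries held 20, 16, 13, 8 and 17 at day 0, 21, 30, 19, 16 and 21 at day 2 and 135, 60, 52, 105 and 74 at day 5. In counts, the highest Abcb10-null library of any day, at 135, was still under the lowest WT library of any day, at 138. The ratio was 13.1 (10.3 to 16.8), 13.8 (11.3 to 16.9) and 5.13 (4.62 to 5.71) at days 0, 2 and 5, and 5.74 at day 5 without replicate 4 (5.1 to 6.48).

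Rab3il1, the exchange factor for Rab GTPases, was expressed in both genotypes and had the smallest ratios at days 0 and 2. Its WT libraries held 30, 32, 30, 16 and 24 counts at day 0, 517, 426, 303, 338 and 374 at day 2 and 1368, 1268, 978, 1392 and 1047 at day 5. The Abcb10-null libraries held 10, 13, 7, 8 and 7 at day 0, 60, 125, 150, 55 and 99 at day 2 and 160, 160, 185, 44 and 96 at day 5. The groups did not overlap on any day, although the Abcb10-null libraries at days 2 and 5 were above the WT libraries at day 0. The ratio was 3.41 at day 0 (2.41 to 4.89), 4.33 at day 2 (3.92 to 4.79) and 10.3 at day 5 (9.52 to 11.2), or 9.35 without replicate 4 (8.59 to 10.2).

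Rnf212b, the meiotic RING finger gene, had 79, 78, 77, 63 and 88 counts in WT at day 0, and no count in any of the 5 Abcb10-null libraries. WT libraries held 49, 57, 90, 76 and 128 counts at day 2 and 128, 127, 59, 89 and 80 at day 5. The Abcb10-null libraries held 0, 1, 0, 0 and 0 at day 2 and 0, 0, 0, 9 and 1 at day 5, so 9 of its 11 counts in that genotype were in replicate 4. Its level was at least 149-fold higher in WT at day 0, set against 3 counts over the group. The ratio was 433 at day 2 with 1 count in Abcb10-null cells (77.2 to 17139), 53.1 at day 5 and 448 at day 5 without replicate 4. Homez, on the opposite strand and sharing 10.6% of the exon bases of Rnf212b, had log2 differences between the genotypes of -0.16, 0.06 and -0.26 at days 0, 2 and 5 (edgeR adjusted p = 0.436, 0.859 and 0.371).

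Rab10os, the antisense gene at Rab10, had 23, 16, 21, 25 and 32 counts in WT at day 0, 47, 34, 27, 27 and 49 at day 2 and 25, 31, 21, 28 and 40 at day 5. The Abcb10-null libraries held 1, 1, 0, 0 and 0 at day 0, none at day 2 and 0, 0, 0, 6 and 1 at day 5. The ratio was 67.9 at day 0 (18.4 to 568) and at least 66.4 at day 2, again against 3 counts over the group. At day 5 it was 22.8, or 135 without replicate 4 (23.8 to 5351). The gene Rab10 on the other strand, which encodes a vesicle GTPase, averaged 1603 counts per library, and its log2 differences between the genotypes at days 0, 2 and 5 were -0.15, 0.14 and 0.40 (edgeR adjusted p = 0.078, 0.394 and 0.0171; 0.0569 without Abcb10-null day 5 replicate 3). Counts of Rab10os were thus at 0 in 11 of 15 Abcb10-null libraries in which Rab10 was read throughout.

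4930523C07Rik, with no role given here, started low in WT and was highest there at day 5. Its WT libraries held 12, 4, 22, 16 and 6 counts at day 0, 65, 52, 43, 43 and 59 at day 2 and 162, 222, 149, 214 and 137 at day 5. The Abcb10-null libraries held none at day 0, 5, 0, 0, 0 and 0 at day 2 and 0, 0, 0, 22 and 3 at day 5. The gene was at 0 in 12 Abcb10-null libraries, and replicate 4 held 22 of the 30 counts in that genotype. The level in WT was at least 23.2-fold higher at day 0, 56.7-fold higher at day 2 (24 to 176) and 38.9-fold higher at day 5, or 273-fold without replicate 4 (93.3 to 1329).

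Bcas1, of myelin-forming oligodendrocytes, was the strongest of the pair that was on in Abcb10-null cells at day 0, with 189, 217, 202, 143 and 261 counts there and 1, 3, 2, 5 and 4 in WT. At day 2 the Abcb10-null libraries held 32, 84, 18, 13 and 75 counts and the WT libraries none. At day 5 they held 8, 14, 6, 9 and 11 against 1, 2, 2, 1 and 0. The groups stayed apart, but by day 5 the gene was near the floor in both. The ratio of Abcb10-null to WT was 58.1 at day 0 (35.1 to 104), at least 68.4 at day 2 and 7.27 at day 5 (3.11 to 20.8), or 7 without replicate 4.

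Gm16579, the antisense RNA gene, had 31, 33, 15, 17 and 33 counts in Abcb10-null cells at day 0, 46, 120, 37, 23 and 49 at day 2 and 65, 79, 46, 38 and 71 at day 5. WT libraries held 2, 0, 1, 0 and 0 at day 2 and none at days 0 and 5. No WT library passed 3 counts and no Abcb10-null library was under 15. Its level was at least 37-fold higher in Abcb10-null cells at day 0, 84.7-fold at day 2 (28.7 to 413) and at least 90.6-fold at day 5. Without Abcb10-null day 5 replicate 4 it was at least 93.7-fold higher at day 5.

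Over the whole table this strict pattern was rare. At most 3 counts in all 15 Abcb10-null libraries with over 3 in all 15 WT libraries was met by 0 genes of 54532, and by Rnf212b and Rab10os, 0.00367% of genes, without Abcb10-null day 5 replicate 4. The reverse pattern was met by 3 genes, or 0.0055%: Gm16579, Ccr1l1 and Wfdc12. Ccr1l1 (chr9:123977243-123978408), a relative of chemokine receptors, was the clearest of these, at 6.3 to 17.1 CPM in Abcb10-null cells with a median of 9.44 and at most 2 counts in WT. Wfdc12 (chr2:164189231-164190608), a member of the whey acidic protein domain family, was at 0.227 to 2.34 CPM. Set per kb of exon in the genotype where each was higher, the 10 genes changed order over the days: at day 0 Bcas1 led with 2.98 CPM per kb, Rnf212b followed with 2.25 and Gpm6b with 1.94, and 4930523C07Rik was last with 0.0753. Libraries of neighbours in this order overlapped except between Gpm6b and Ret (0.894), Ret and Gm16579 (0.555) and Rab3il1 (0.245) and 4930523C07Rik. By day 5 Rab3il1 led with 12.7 CPM per kb, apart from Gpm6b with 5.2 and Rnf212b with 3.15, and Bcas1 was last with 0.174.

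Changes over the days of differentiation within 1 genotype were tested by edgeR's quasi-likelihood test, adjusted over all genes. Members were chosen by genotype and not by a change over days, but that choice used the values of every day. The tests are thus not independent of the choice. The filter also kept a gene that was high on either day compared, such as 4930523C07Rik, with 4 to 22 counts in WT at day 0. In WT, 4 of the 8 WT-high members rose from day 0 to day 2 and none fell, while 62.2% of all genes tested changed (31.5% up and 30.7% down). Rab3il1 rose most, from 1.72 ± 0.44 to 23.1 ± 4.05 CPM (SD, n = 5), a log2 change of 3.81 (SE 0.2, edgeR adjusted p = 1.53e-08). 4930523C07Rik rose from 0.767 ± 0.444 to 3.1 ± 0.428 CPM, by 2.06 (SE 0.36, edgeR adjusted p = 0.000255), and Mid1 from 2.8 ± 0.58 to 8.77 ± 3.78 CPM, by 1.72 (SE 0.3, edgeR adjusted p = 0.000254). Gpm6b rose from 10.8 ± 1.05 to 16.1 ± 0.827 CPM, by 0.64 (SE 0.11, edgeR adjusted p = 0.000347). The receptors did not pass: Ret had a log2 change of 0.32 (edgeR adjusted p = 0.0801) and Met 0.01 (edgeR adjusted p = 0.968).

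From day 2 to day 5 in WT, 3 of the 8 rose and none fell, and 33.4% of all genes tested changed (17% up and 16.4% down). Rab3il1 rose to 89.1 ± 13.4 CPM, by a further 1.96 (SE 0.15, edgeR adjusted p = 5.16e-06), 4930523C07Rik to 13.1 ± 3.1 CPM, by 2.08 (SE 0.21, edgeR adjusted p = 2.97e-05), and Gpm6b to 29.1 ± 5.64 CPM, by 0.86 (SE 0.14, edgeR adjusted p = 0.000599). Mid1 had a log2 change of -0.53 (edgeR adjusted p = 0.209). From day 0 to day 5, 5 of the 8 rose and 1 fell, and 71.2% of all genes tested changed (36.5% up and 34.7% down). Rab3il1 was 54.3-fold and 4930523C07Rik 17.6-fold its day 0 level. Both had their lowest day 5 value in WT replicate 5, at 66.3 and 8.68 CPM. That library had a summed erythroid marker level of 11897 CPM against 20583 to 23578 in the other 4. Without it the log2 changes were 5.85 and 4.25, against 5.76 and 4.14 with it.

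The receptor Met was the single member that fell in WT, to 2.24 ± 0.879 CPM at day 5 from 4.11 ± 0.915 at day 0, with a log2 change of -0.80 (SE 0.29, edgeR adjusted p = 0.0266). This call was lost without WT day 0 replicate 3 (-0.72, edgeR adjusted p = 0.0652) and without WT day 5 replicate 3 (-0.70, edgeR adjusted p = 0.0621). Rnf212b rose by 0.56 (SE 0.22, edgeR adjusted p = 0.0338), and this call was lost without any 1 of WT day 0 replicates 1, 3, 4 or 5 or WT day 5 replicates 1 or 2, where the edgeR adjusted p ran from 0.0547 to 0.104. Ret and Rab10os did not pass, with log2 changes of 0.30 (SE 0.16, edgeR adjusted p = 0.0997) and 0.53 (SE 0.26, edgeR adjusted p = 0.0857). Mid1 and Gpm6b were 2.27-fold and 2.82-fold their day 0 level at day 5, with edgeR adjusted p = 0.00101 and 8.77e-07.

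**Figure D3:**
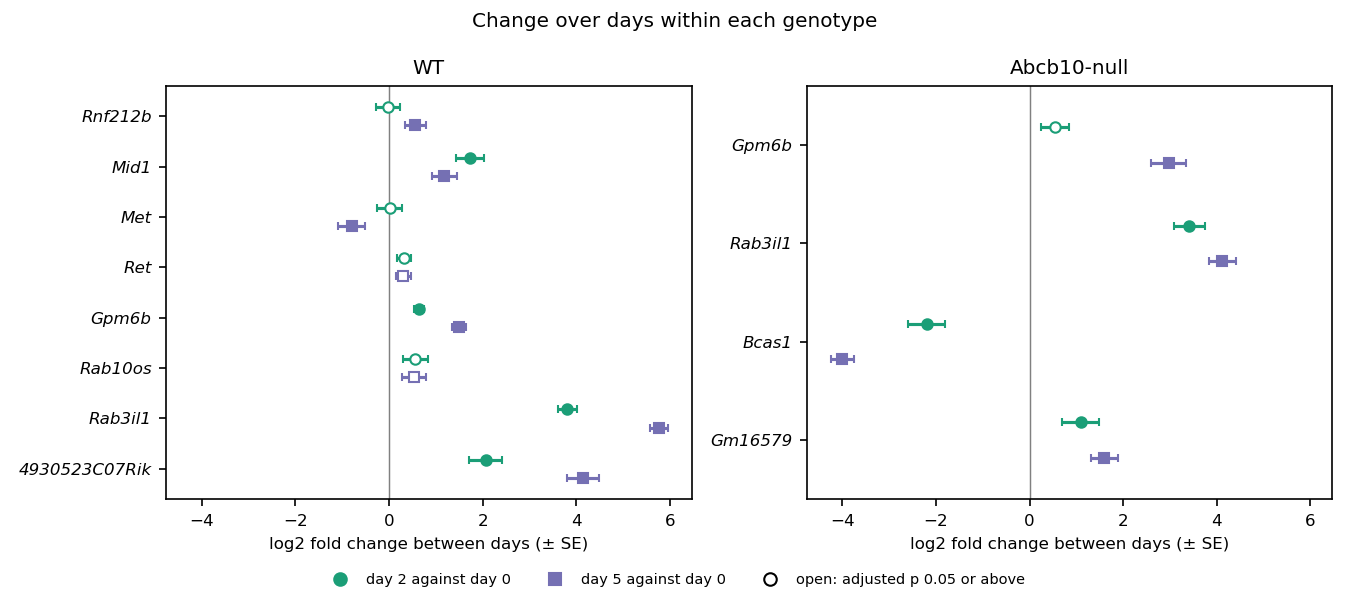
Log2 fold change with SE from day 0 to day 2 (circles) and to day 5 (squares), within WT for 8 genes and within Abcb10-null cells for the 4 that could be tested there; open symbols have an adjusted p of 0.05 or above. In WT Rab3il1 and 4930523C07Rik reach 5.76 and 4.14, and in Abcb10-null cells Bcas1 reaches -4.00.

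In Abcb10-null cells 4 members could be tested, and all 4 changed from day 0 to day 5, 3 of them upward, where 67.2% of all genes tested changed (33.9% up and 33.3% down). Rab3il1 and Gpm6b were low at day 0 (7 to 13 and 8 to 20 counts) and Bcas1 at day 5 (6 to 14). The filter kept them through the day on which they were higher. The counts of members called in these cells, and the adjusted p of Rab3il1, Gpm6b and Bcas1 here and below, are thus descriptions. Rab3il1 and Gpm6b were also chosen for being low in this genotype. With at least 10 counts in every library, 1 member was tested, and it was called. Bcas1 fell from 11.3 ± 1.68 CPM at day 0 to 2.36 ± 1.64 at day 2 and 0.656 ± 0.227 at day 5, a log2 change of -4.00 over the 5 days (SE 0.25, edgeR adjusted p = 9.35e-10). Gm16579 went the other way, from 1.42 ± 0.417 to 2.94 ± 1.85 and 4 ± 1.1 CPM, a log2 change of 1.6 (SE 0.28, edgeR adjusted p = 0.000116). Bcas1 and Gm16579, the members higher in this genotype, thus moved in opposite directions. Gpm6b rose by 2.97 (SE 0.37, edgeR adjusted p = 2.58e-06) and Rab3il1 by 4.12 (SE 0.29, edgeR adjusted p = 4.47e-09). Without replicate 4 these changes were -4.09, 1.62, 2.71 and 4.27.

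From day 0 to day 2 in these cells, 3 of the 4 changed, where 43.1% of all genes tested did (23.1% up and 20.1% down). Bcas1 fell, with a log2 change of -2.20 (SE 0.39, edgeR adjusted p = 0.00061), and Rab3il1 rose by 3.41 (SE 0.33, edgeR adjusted p = 5.33e-06). Gm16579 rose by 1.09 (SE 0.39, edgeR adjusted p = 0.0364), but this rested on single libraries, since the edgeR adjusted p was 0.0517 to 0.0887 without any 1 of the 5 day 0 libraries and 0.111 without day 2 replicate 2, where the log2 change was 0.63. From day 2 to day 5, 2 of the 4 changed, where 31% of all genes tested did (14.4% up and 16.6% down). Gpm6b rose by 2.46 (SE 0.37, edgeR adjusted p = 0.000352) and Bcas1 fell, with a log2 change of -1.75 (SE 0.53, edgeR adjusted p = 0.0229). The call for Bcas1 was lost without day 2 replicates 2 or 5 or day 5 replicates 1 or 3, at an edgeR adjusted p of 0.0514 to 0.0582. Rab3il1 missed, at 0.72 (edgeR adjusted p = 0.0739), but passed without day 5 replicate 4, at 0.87 (edgeR adjusted p = 0.0364), and without day 2 replicate 3, at 0.92 (edgeR adjusted p = 0.0354). Gm16579 had a log2 change of 0.54 (edgeR adjusted p = 0.293) and passed without day 2 replicate 2, at 1.00 (edgeR adjusted p = 0.0224).

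Gpm6b and Rab3il1 were read in both genotypes in all 30 libraries, so their change over days can be set side by side. The choice of members used the genotypes at every day, so this difference too is a description, with no test. From day 0 to day 5 Gpm6b went from 0.817 ± 0.21 to 5.88 ± 2.69 CPM in Abcb10-null cells against 10.8 ± 1.05 to 29.1 ± 5.64 in WT, a difference in log2 change of 1.46 (SE 0.38). Rab3il1 went from 0.503 ± 0.123 to 8.23 ± 2.83 CPM against 1.72 ± 0.44 to 89.1 ± 13.4, a difference of -1.63 (SE 0.37). The larger rise was thus in Abcb10-null cells for Gpm6b and in WT for Rab3il1. Without Abcb10-null day 5 replicate 4 the differences were 1.21 and -1.48. From day 0 to day 2 they were -0.12 (SE 0.26) for Gpm6b and -0.42 (SE 0.39) for Rab3il1. By edgeR this interaction was called for 22.8% of all genes tested to day 2 and for 31.5% to day 5. The log2 change was higher (a larger rise or a smaller fall) in Abcb10-null cells for 12% and 16.8%, and in WT for 10.8% and 14.7%.

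Genes that act with the members were taken from lists written from general knowledge, 104 of which were in the table. Of those tested, 21 of 56 (37.5%) differed between the genotypes at day 0, 16 of 57 (28.1%) at day 2 and 20 of 54 (37%) at day 5, close to the 36%, 31.8% and 37.6% of all genes. The median log2 difference over the lists was 0.029, 0.03 and -0.09, and over all genes it was -0.002, -0.002 and -0.016. Without Abcb10-null replicate 4 the count at day 5 was 16. At day 2 the count moved with single libraries, to 5 without Abcb10-null replicates 1, 3 or 4, 6 without WT replicate 2, 8 without WT replicate 1 and 9 without WT replicate 5.

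Around Met, 15 genes were listed, and 3 of 11 tested differed at day 0, 2 of 10 at day 2 and 1 of 10 at day 5. Over all genes tested the shares were 36%, 31.8% and 37.6%. Hgfac, the protease that activates hepatocyte growth factor, was higher in Abcb10-null cells at day 0, at 1.27 ± 0.374 against 0.297 ± 0.115 CPM (log2 2.06, edgeR adjusted p = 0.000365). Its WT level there was near the floor, so the filter kept it through the Abcb10-null libraries and the difference is a description. At day 2 Hgfac had a log2 difference of 0.26 (edgeR adjusted p = 0.577). Hpn, a protease with the same substrate, was higher at day 0 by 1.10 (edgeR adjusted p = 0.00974). Cd44, a co-receptor, was lower at day 0, at 21.8 ± 2.14 against 27 ± 2.1 CPM (log2 -0.31, edgeR adjusted p = 0.0111). The adaptor Gab1 was higher at day 5, by 0.82 (edgeR adjusted p = 0.0154; 0.0533 without Abcb10-null day 5 replicate 2). Met's ligand Hgf, looked at after its values were seen, passed 3 counts in 8 of the 30 libraries.

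Around Ret, 18 genes were listed and 6 could be tested, of which 2 differed at day 0, 4 at day 2 and 3 at day 5. Over all genes tested the shares were 36%, 31.8% and 37.6%. The co-receptors Gfra1, Gfra2, Gfra3, Gfra4 and Gfral, named after their values were seen, passed 3 counts in 5, 4, 2, 2 and 0 of the 30 libraries, and the ligand Gdnf in 3. Gdf15, a ligand that reaches Ret through GFRAL, was higher in Abcb10-null cells at day 5, at 6.49 ± 1.55 against 1.57 ± 1.42 CPM (log2 2.07, edgeR adjusted p = 0.00451). It was lower at day 0 (-0.90, edgeR adjusted p = 0.0263) and higher at day 2 (2.09, edgeR adjusted p = 0.0254), and these calls were lost without any 1 of 4 and 5 libraries, at an edgeR adjusted p of 0.0535 to 0.0652 at day 0 and 0.0538 to 0.0651 at day 2. Of the Dok adaptors, Dok2 was lower at day 0 (log2 -0.31, edgeR adjusted p = 0.00475), Dok4 at day 2 (-0.80, edgeR adjusted p = 0.0144) and Dok1 at day 5 (-0.55, edgeR adjusted p = 0.00919).

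MAP kinase feedback and early response genes, which such receptors drive, differed in 5 of 9 tested at day 0, 4 of 10 at day 2 and 3 of 9 at day 5, beside 36%, 31.8% and 37.6% of all genes tested. At day 0, 3 were higher and 2 lower in Abcb10-null cells, and those called at days 2 and 5 were higher, where 14.9% and 19.8% of all genes tested were. Dusp6, a phosphatase that dampens ERK, was at 3.75 ± 0.639 against 1.08 ± 0.313 CPM at day 2 (log2 1.69, edgeR adjusted p = 0.00315) and at 3.83 ± 0.635 against 1.44 ± 0.348 at day 5 (1.45, edgeR adjusted p = 0.00154). Etv4, a transcription factor, was at 17.6 ± 1.34 against 9.99 ± 1.76 CPM at day 0 (0.81, edgeR adjusted p = 3.69e-05) and at 3.49 ± 1.83 against 0.338 ± 0.229 at day 2 (3.26, edgeR adjusted p = 0.00283). In WT at day 2 Etv4 was near the floor. The filter kept it there through the Abcb10-null libraries, so its day 2 difference is a description. Myc was lower at day 0 (-0.39, edgeR adjusted p = 0.00908) and higher at day 5 (0.84, edgeR adjusted p = 0.000307), and Ier3 was higher at day 0 (0.46, edgeR adjusted p = 0.00468).

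The other lists showed moderate differences. Of 6 tested partners of Mid1, 3 differed at day 0, 1 at day 2 and 3 at day 5. Over all genes tested the shares were 36%, 31.8% and 37.6%. The PP2A scaffold subunits went apart at day 0, Ppp2r1a lower by a log2 difference of -0.39 (edgeR adjusted p = 0.000427) and Ppp2r1b higher by 0.33 (edgeR adjusted p = 0.00533), while the catalytic subunit Ppp2ca was at 0.14 (edgeR adjusted p = 0.122). Ppp2ca was higher at days 2 and 5 by 0.46 and 0.25 (edgeR adjusted p = 0.0232 and 0.0461), and Ppp2r1b was lower at day 5 by a log2 difference of -0.32 (edgeR adjusted p = 0.0364), but each of these calls was lost without any 1 of at least 5 of the 10 libraries. Mid1ip1, a partner of MID1 at microtubules, was lower at day 0 (-0.31, edgeR adjusted p = 0.00346) and higher at day 5 (0.87, edgeR adjusted p = 0.0117). Of 13 tested Rab GTPases and regulators, 4 differed at day 0, 4 at day 2 and 7 at day 5. These were 30.8%, 30.8% and 53.8%, beside 36%, 31.8% and 37.6% of all genes tested. Ip6k1, which binds the Rab3il1 protein, was lower at day 5, at 127 ± 43.7 against 238 ± 20.9 CPM (log2 -0.88, edgeR adjusted p = 0.00152), as was the Rab10 exchange factor Dennd4c (-0.73, edgeR adjusted p = 0.00256), while Rab8a was higher (0.53, edgeR adjusted p = 0.00375) and Rab3gap1 was higher at day 0 (0.31, edgeR adjusted p = 0.0013).

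Of 14 myelin and oligodendrocyte genes, 4 could be tested, and 2 differed at day 0, 1 at day 2 and 1 at day 5. For this list and the meiotic list below, the shares over all genes tested were 36%, 31.8% and 37.6%. Cnp was higher in Abcb10-null cells at day 0, at 56.9 ± 6.5 against 29.2 ± 2.84 CPM (log2 0.96, edgeR adjusted p = 1.49e-07), and Mbp by 0.42 (edgeR adjusted p = 0.00022). Myrf, the myelin transcription factor, had a log2 difference of 0.19 at day 0 (edgeR adjusted p = 0.78) and was lower at day 2, by a log2 difference of -2.28 (edgeR adjusted p = 0.0262, and 0.0515 to 0.0645 without any 1 of 5 libraries). Of 19 meiotic recombination genes in the table, 7 could be tested at day 0, and 2 of them differed. Msh5 was higher by 0.61 (edgeR adjusted p = 0.000804) and the cohesin subunit Rec8 by 1.6 (edgeR adjusted p = 0.00186). At day 2 none of 8 tested passed, and at day 5 2 of 6 did, with Mlh3 lower (-0.61, edgeR adjusted p = 0.00252) and Msh5 higher (0.56, edgeR adjusted p = 0.0384). The call for Msh5 at day 5 was lost without any 1 of 6 libraries (edgeR adjusted p 0.0581 to 0.094).

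The nearest tested genes beside the members on the chromosome were examined to see whether they differed in the same way. They were not always close, as Noa1 lay 9418815 bases from Gm16579. Up to 5 tested genes on each side gave 92 genes, and 40 (43.5%) differed at day 0, 26 of 91 (28.6%) at day 2 and 31 of 90 (34.4%) at day 5, or 30 without Abcb10-null replicate 4, where 36%, 31.8% and 37.6% of all genes tested did. Of those called, 15 of 40, 13 of 26 and 12 of 31 differed in the direction of their member, and the others in the opposite direction. Their median log2 difference was 0.06, 0.086 and 0.035. At day 0 their log2 differences ran from -1.73 to 1.40. At day 2 the count of 26 fell to 16 or 17 without Abcb10-null replicates 1 or 4 or WT replicates 1 or 2.

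Next to Rab3il1, Fads3, a fatty acid desaturase gene 3189 bases on, had a log2 difference of -0.21 at day 0 (edgeR adjusted p = 0.177), and was lower in Abcb10-null cells later, with log2 differences of -1.11 at day 2 and -1.71 at day 5 (edgeR adjusted p = 0.00272 and 2.64e-06). Fth1, the ferritin heavy chain gene on the other side, was lower at day 5 (-0.51, edgeR adjusted p = 0.0128). Next to Mid1, the noncoding RNA gene G530011O06Rik, which shares 14.2% of Mid1's exon bases, was at -0.22 at day 0 (edgeR adjusted p = 0.139) and was lower at day 2 (-1.35, edgeR adjusted p = 0.0153). BC022960, 315196 bases before Mid1, was higher at day 0 (0.33, edgeR adjusted p = 0.0168), against the direction of Mid1. This call was lost without any 1 of 3 libraries (edgeR adjusted p 0.0537 to 0.055). Next to Gpm6b, Ofd1, a centriole gene 1045 bases on, was at -0.12 at day 0 (edgeR adjusted p = 0.188) and was higher at day 5 (0.70, edgeR adjusted p = 0.00179), against the direction of Gpm6b. Gemin8, before Gpm6b, and 1700123O20Rik, before Rnf212b, were at 0.10 and -0.06 at day 0 (edgeR adjusted p = 0.539 and 0.623).

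Beside Ret, Csgalnact2, which makes chondroitin sulfate, was higher in Abcb10-null cells at day 0 (0.42, edgeR adjusted p = 0.000239) and Bms1, a ribosome assembly gene, was lower (-0.29, edgeR adjusted p = 0.0063). Beside Met, Capza2, an actin capping gene, was at 0.16 at day 0 (edgeR adjusted p = 0.138) and higher at day 5 (0.39, edgeR adjusted p = 0.0117). On the other side, 3419415 bases from Met, 1110019D14Rik was higher at day 2 (0.87, edgeR adjusted p = 0.0203). That call was lost without any 1 of 3 libraries (edgeR adjusted p 0.0508 to 0.0541). Beside Gm16579, Uba6 and Ythdc1, 556096 and 44485 bases off, were higher at day 0 by 0.37 and 0.52 (edgeR adjusted p = 0.00497 and 7.5e-05). Beside Bcas1, Gm14270 and Gm14269 were at -0.12 and -0.05 at day 0 (edgeR adjusted p = 0.66 and 0.918). Gm14270 was higher in Abcb10-null cells at days 2 and 5, by 1.07 and 1.05 (edgeR adjusted p = 0.0254 and 0.0221), and each call was lost without any 1 of 4 libraries. Beside 4930523C07Rik, Cop1, 696742 bases off, and Mrps14 were at 0.06 and -0.14 (edgeR adjusted p = 0.564 and 0.118).

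**Figure D4:**
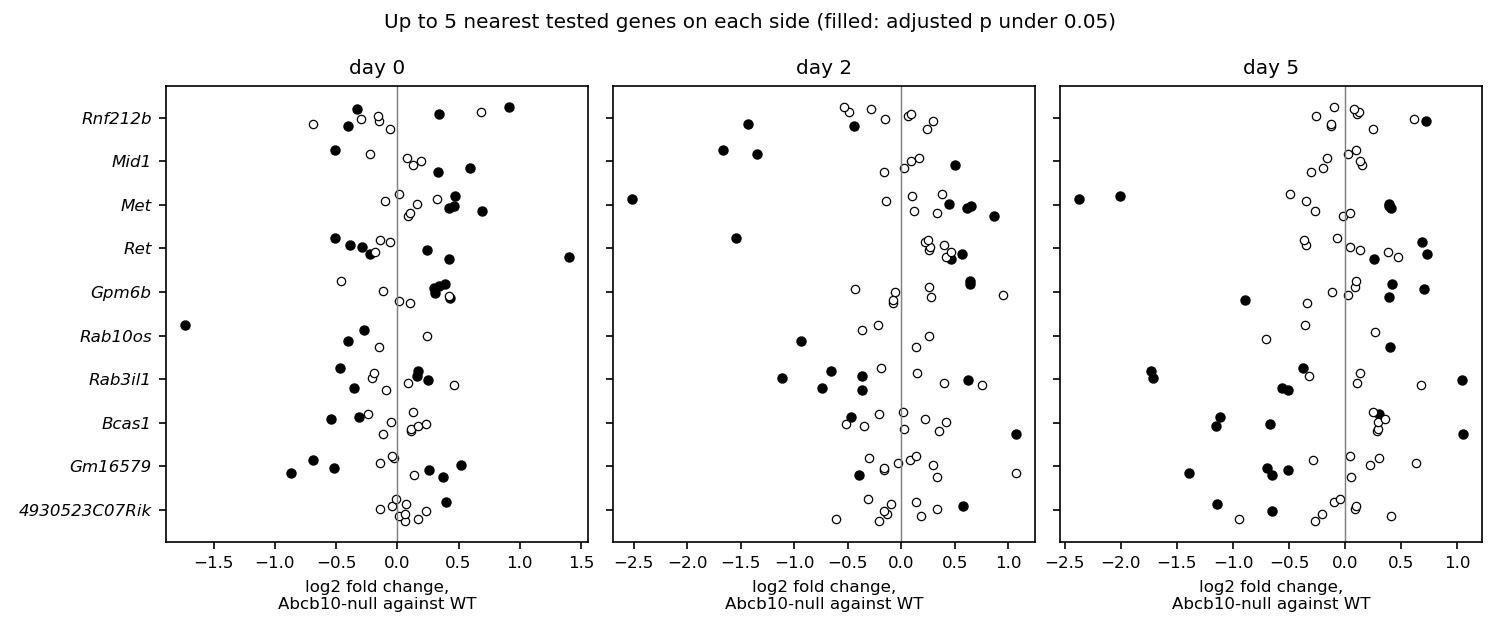
Log2 difference of Abcb10-null against WT at days 0, 2 and 5 for up to 5 nearest tested genes on each side of each member; filled points have an adjusted p under 0.05. Points lie on both sides of 0 for most members, between -1.73 and 1.40 at day 0.

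Gpm6b and Mid1 are 3296211 bases apart, with 43 genes of the table between them. Of these 20 passed 3 counts in any library and 10 were tested at day 0, with log2 differences of -0.46 to 0.59. Ofd1 had a mean of 344 CPM in WT and 317 in Abcb10-null cells, Msl3, of the dosage compensation complex, 171 and 182, and Hccs, of heme attachment to cytochrome c, 214 and 235. Gpm6b and Mid1 at its ends were thus low in Abcb10-null cells, while the genes tested between them stayed within 0.59 on the log2 scale at day 0. At days 2 and 5 the largest differences among them were 0.64 and 0.70. Met and Ret, 100577765 bases apart, were too distant for this comparison.

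**Figure D5:**
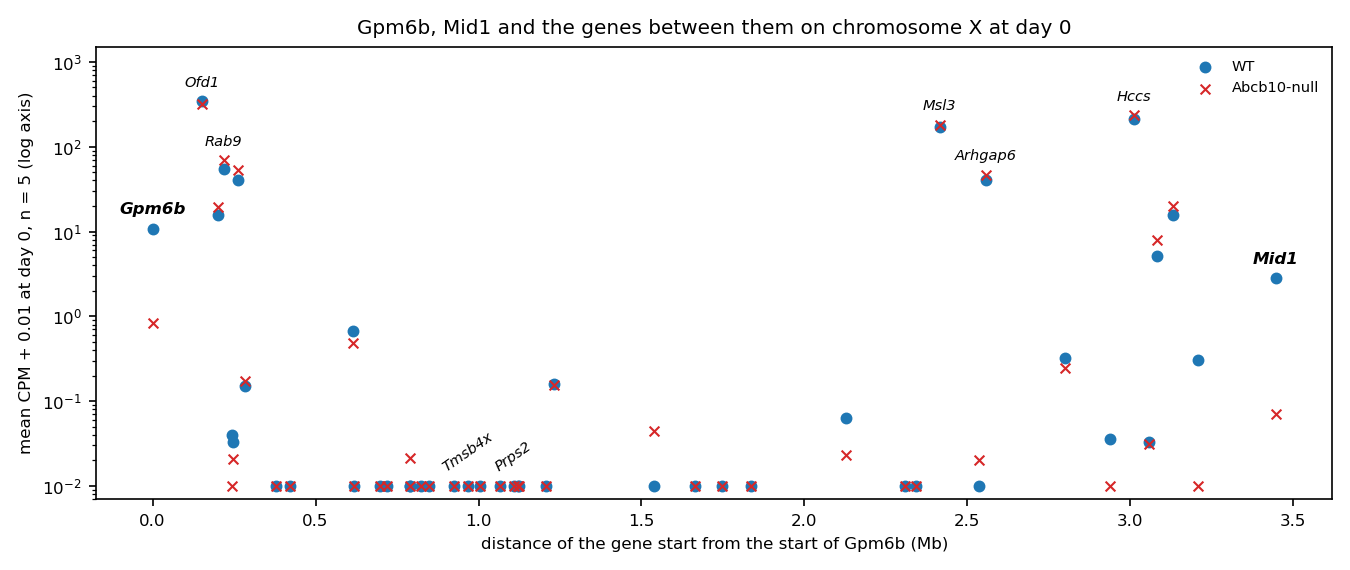
Mean CPM plus 0.01 at day 0 (log axis, n = 5) in WT (circles) and Abcb10-null cells (crosses) for Gpm6b, Mid1 and the 43 genes between them, by distance from the start of Gpm6b in Mb. Circles and crosses coincide for genes such as Ofd1, Msl3 and Hccs and are apart for Gpm6b and Mid1. They are also apart for some untested genes near the floor, such as Gm15245 (0.299 CPM in WT and 0 in Abcb10-null cells).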

How the data were processed

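The deposited values are raw counts per Ensembl gene as the authors made them, neither normalized nor filtered. Per the paper's methods and the submitters' processing notes, ribosomal and globin RNA were depleted, libraries were stranded, and reads were aligned to GRCm38 with STAR 2.6.1b and counted with featureCounts 1.6.3. The counting settings for strand, multimapping and fragments are not given in the sources used here. Groups and replicate numbers came from the sample labels. Differences were tested with edgeR 4.0.16 in R 4.3.3 (TMM, filterByExpr, glmQLFit, glmQLFTest, Benjamini-Hochberg adjusted p under 0.05 over all genes tested), on the libraries of the groups compared only. CPM values are counts over the TMM-scaled library size of all 30 libraries. A count of 3 or less was the floor, and ratios of summed counts carry exact 95% intervals for counting error only. Libraries of 1 group were further apart than sampling of reads gives (lowest chi-square per degree of freedom 6.48), and the biological replicates of Abcb10-null cells came from 1 clone. Positions, exon lengths and neighbours came from GENCODE M21, and 37 gene identifiers had no match there. Promoter sequences came from RefSeq. The genes named were the 10 members, the nearest tested gene on each side of each, the genes between members, up to 4 called genes per partner list with the smallest adjusted p, other genes of the silent pattern and markers. The members, lists and tests were chosen with earlier results of these data known. Alternatives were DESeq2 1.42.0, its size factors in edgeR, other count filters, 1 fit of all 30 libraries, the replicate number as a block and leaving out each library. The steps were tested on simulated data.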

Additional observations from a re-analysis of the deposited data

Results flagged for a closer look

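In 48 groups of 5 libraries in which a member passed 3 counts in any library, Dixon's test was used to look for a library far from the others, and it found 9. For values with a continuous spread chance gives about 1 in 20 groups, but that rate does not hold for groups in which most libraries are at 0. Of the 9, 5 were Abcb10-null day 5 replicate 4: Rnf212b at 0.765 CPM (others 0 to 0.074), Met at 1.28 CPM (0 to 0.113), Ret at 1.28 CPM (0 to 0.124), Rab10os at 0.51 CPM (0 to 0.074) and 4930523C07Rik at 1.87 CPM (0 to 0.222). Per kb of exon these 5 genes held 0.977 to 4.02 counts in that library, beside 1.74 over genes that were at or under 3 counts in the other 5 groups. What sets this library apart was not tested. The other 4 were Met in Abcb10-null day 0 replicate 3 at 0.226 CPM (4 counts, others 0), 4930523C07Rik in Abcb10-null day 2 replicate 1 at 0.284 CPM (5 counts, others 0), Gpm6b in WT day 5 replicate 2 at 39.1 CPM (others 25.5 to 27.7) and Gm16579 in Abcb10-null day 2 replicate 2 at 6.14 CPM (others 1.41 to 2.62).

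The change from day 0 to day 5 differed between the genotypes by 1.46 on the log2 scale for Gpm6b and by -1.63 for Rab3il1. The choice of members used these genotype values, so neither is a test.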

How the results depend on the processing

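The 94 single-gene results were recomputed in 1489 alternatives, of which 1312 kept direction and call, 145 lost the call, 11 gained it and 21 changed sign. The changes of sign were in small differences that passed no test: Rnf212b from day 0 to day 2 in WT (-0.022) was 0.016 with at least 10 counts in every library and -0.211 to 0.149 leaving out 1 library; Met there (0.013) was -0.013 over all genes with a count, -0.031 with a replicate block and -0.106 to 0.155 leaving out 1 library. From day 2 to day 5 in WT, Ret (-0.011) was 0.006 with DESeq2, 0.004 with its size factors and -0.056 to 0.037 leaving out 1 library, and Rab10os (-0.033) was -0.102 to 0.066. The rise of Rnf212b in WT from day 0 to day 5 was lost over all genes with a count (edgeR adjusted p = 0.077) and in 1 fit of all 30 libraries (0.243), and the fall of Met in that fit (0.222).

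Genes silent in Abcb10-null cells at all days numbered 0, but 2 with 10 counts as the limit and 0 to 2 leaving out 1 library, and genes silent in WT numbered 3, but 0 with 0 counts as the limit. Members called in Abcb10-null cells from day 2 to day 5 numbered 2, but 1 with at least 10 counts in every library, 6 in 1 fit of all libraries and 1 to 3 leaving out 1 library; from day 0 to day 5 they numbered 4, but 1 and 7 under the first 2 of these. At least 10 counts in every library removes low members from the test. In 1 fit of all libraries, neighbours called at day 0 fell from 40 to 18 and partners from 21 to 9, while the calls over all genes fell from 4642 to 1584. Neighbours at day 5 were 20 in place of 31 over all genes with a count. Leaving out 1 library, neighbours at day 2 (26) ranged from 16 to 29 and partners (16) from 5 to 24. Where no cause is given, it was not tested. Counts near the floor limit what can be said of members that are off.

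Replicate numbers were shared by all groups, but libraries of the same number did not deviate together (75 pairs, r from -0.263 to 0.43, median -0.0142), so the numbers do not pair the samples. With a replicate block, members called numbered 4, 3 and 5 in the 3 WT comparisons and 3, 2 and 4 in Abcb10-null cells. The block took the call from Rnf212b from day 0 to day 5 (0.52, edgeR adjusted p = 0.0558) and from no other member. With the block the interaction to day 5 was 1.43 for Gpm6b and -1.66 for Rab3il1 on the log2 scale, and neighbours called were 36, 26 and 26 and partners 23, 11 and 16 at days 0, 2 and 5.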

Other observations

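Between Gpm6b and Mid1, 13 of the 43 genes had no count in any of the 30 libraries. The longest unbroken run held 7 genes, from Gm15228 to Gm26368 (chrX:167164097-167382749), and among them were Tmsb4x, which encodes thymosin beta 4 and is abundant in most blood cells, Prps2, an enzyme of nucleotide synthesis, and the receptors Tlr7 and Tlr8. The run was singled out after its values were seen. Its exons add up to 17.1 kb. Because the run was chosen as the longest with no counts, its zeros are a description in both genotypes, and their cause was not tested.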
